A study of Mus musculus with 24 samples.

Results

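Immunoglobulin heavy and light chain genes, the joining chain gene Jchain, the IgA transporter gene Pigr and the plasma cell genes Mzb1 and Tnfrsf17 were followed through mouse intestinal organoids and intestine. Members were taken by symbol (names starting with Ighv, Igkv, Iglv, Igha, Ighm, Ighg, Igkc or Iglc, plus the 4 genes named above) from the probe sets that name 1 gene alone. This gave 211 of the 30701 genes measured, namely 117 Ighv genes, 86 Igkv genes, the heavy chain constant genes Ighm, Ighg1 and Ighg2b, the 4 genes of transport and plasma cells, and Ighmbp2. Ighmbp2 shares only the first letters of its name with Ighm and is no immunoglobulin gene, so it is described apart. No Iglv gene was measured by a probe set of its own, and Igha, Igkc and the Iglc genes lie only in probe sets that name several genes at once.

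RNA was measured on 24 Affymetrix arrays, 4 in each of 6 groups. Organoids, which are epithelial structures grown from intestine in a gel, came from E19 fetuses or from adult mice, were kept in ENR medium and were taken at day 3 or day 30 of culture. Whole intestine came from newborn (P0) and from adult mice. The sources used here do not give strain, sex, adult age, intestinal segment or genotype, nor whether the 4 arrays of a group came from separate animals, so p-values measure the spread between arrays, which may be technical. Arrays 1 and 3 of adult organoids at day 3 stood apart in their immunoglobulin signal, and results that rest on them are given with and without them. Means of 10 epithelial markers lay between 9.96 and 10.28 on the organoid arrays. Values are log2 signals, on which a difference of 1 is a 2-fold change, and the numbers of arrays limit their precision.

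IgA is the main antibody of the gut. Plasma cells of the lamina propria assemble heavy and light chains with the J chain into polymeric IgA, the polymeric immunoglobulin receptor (Pigr) on the basal side of epithelial cells takes it up and carries it to the lumen, and a part of the receptor stays bound as secretory component. Each B lineage cell expresses a heavy chain built from 1 of many Ighv segments and a light chain built from 1 of many Igkv or Iglv segments, so the V genes read together follow the B lineage and read singly follow which segments its cells use. Pigr is the epithelial side of this route, while Mzb1 is a chaperone of the endoplasmic reticulum that helps antibody assembly and Tnfrsf17 (BCMA) is a survival receptor of plasma cells.

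The stretches just before the start sites of Pigr and Jchain are shown because these genes stand for the epithelial and the plasma cell side of the data that follow. Both are the 250 bases before the RefSeq start on the GRCm38.p6 build, read 5′ to 3′ on the gene's own strand, with the E-box CACGTG in capitals. The Pigr stretch is chr1:130826434-130826683 on the + strand and the Jchain stretch is chr5:88527898-88528147 on the - strand.
Pigr: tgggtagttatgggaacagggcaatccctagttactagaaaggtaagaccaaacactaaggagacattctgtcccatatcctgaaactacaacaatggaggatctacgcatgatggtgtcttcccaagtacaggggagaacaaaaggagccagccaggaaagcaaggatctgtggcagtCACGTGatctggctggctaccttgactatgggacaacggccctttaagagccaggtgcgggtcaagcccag
Jchain: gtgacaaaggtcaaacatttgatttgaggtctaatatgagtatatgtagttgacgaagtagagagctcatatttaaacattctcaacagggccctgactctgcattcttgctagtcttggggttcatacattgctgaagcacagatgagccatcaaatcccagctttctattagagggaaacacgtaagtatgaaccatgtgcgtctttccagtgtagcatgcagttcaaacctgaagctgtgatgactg
CACGTG, which reads the same on both strands and is the sequence USF factors are known to bind, occurred in the Pigr stretch from 71 to 66 bases before the start and not in the Jchain stretch. It occurred in 6.02% of the 32851 promoters of the table over the same 250 bases. The octamer ATGCAAAT, which on either strand marks V gene promoters, occurred in 1.60% of the promoters and in neither stretch, nor did its shorter form ATGCAAA, found in 4.12%. Of the members, 4 were in the table (Jchain, Pigr, Tnfrsf17 and Ighmbp2). The match is a description of the letters only.

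Adult intestine carried a high immunoglobulin signal that newborn intestine lacked. The means of the 206 immunoglobulin genes were 3.50, 3.52, 3.42 and 3.58 on the 4 P0 arrays and 6.07, 6.30, 6.43 and 6.58 on the 4 adult tissue arrays, and the groups did not overlap. Of the 211 members, 197 were higher in adult than in P0 tissue in limma's moderated test with Benjamini-Hochberg adjustment over all genes (adjusted p under 0.05), against 15.0% of all genes, and 0 were lower, against 12.2% of all genes. With a further demand of at least a 2-fold change the count was 167, against 2.60% of all genes. On every adult array 192 members lay above every P0 array, which 17.2% of all genes did. The 206 immunoglobulin genes had a median log2 difference of 2.54, beside 0.08 for all genes. The median of the array's negative control probe sets is used here as a bar for background, and a gene whose group mean lay under it has no measured level there. Many negative controls lie above their median, so a value above the bar may still be background. On each P0 array 1 of the 206 genes lay above the 95th percentile of the negative controls, so differences from P0 tissue may be understated. Of the 206 genes, 47 lay above the bar in both tissues, 118 rose from below it, so that only a lower bound of their difference can be read, and 41 lay below it in both and give no size. With the genes at their bound and those without a size at 0, the median was 1.68. Centring the arrays moved the share of higher calls among all called genes from 55.2% to 40.1%, and left 194 members higher and 0 lower. In whole tissue, fewer cells of a type and less RNA per cell cannot be told apart.

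**Figure D1:**
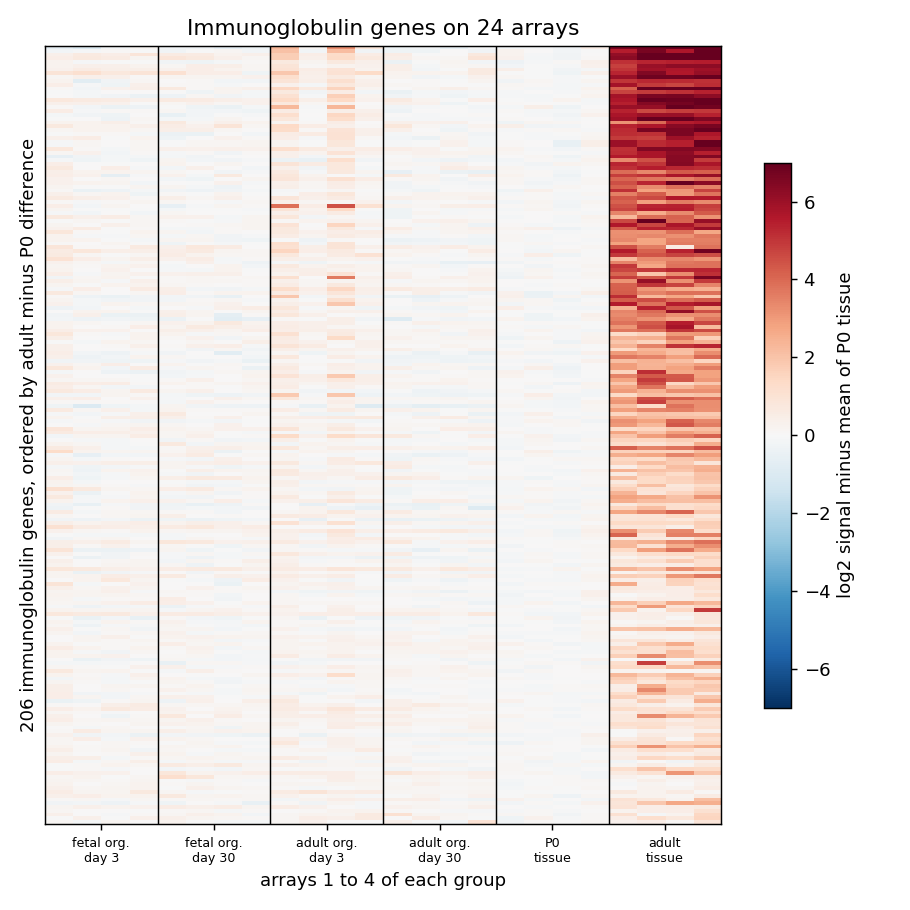
Log2 signal of the 206 immunoglobulin genes (rows, ordered by the adult minus P0 difference) on the 24 arrays (columns, arrays 1 to 4 of each group), each relative to the mean of the 4 P0 arrays. The 4 adult tissue arrays stand out for most genes, and arrays 1 and 3 of adult organoids at day 3 carry a faint signal in the same genes.

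J chain showed the widest gap of the 4 transport and plasma cell genes. Its log2 signal was 3.12, 3.09, 2.88 and 2.85 on the P0 arrays and 8.92, 9.0, 9.25 and 9.54 on the adult tissue arrays. Since the P0 values lay below the negative control median of their arrays, which ran from 4.28 to 4.43, the difference of 6.19 ± 0.20 (SE, limma adjusted p = 3.4e-16) is given as a bound, at least 28.3-fold higher in adult tissue. This bound sets the adult mean against the P0 arrays, each taken at the higher of the gene's value and the median of the negative controls there. The other bounds given are made the same way.

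Pigr rose from 8.67, 8.27, 8.26 and 8.04 in P0 tissue to 11.88, 11.84, 11.92 and 11.75 in adult tissue. The difference was 3.54 ± 0.22 (SE, limma adjusted p = 1.2e-11), an 11.6-fold change with no overlap between arrays. Mzb1 rose from 4.57, 4.44, 4.59 and 4.66 to 5.60, 5.86, 6.25 and 6.30, by 1.44 ± 0.14 (SE, limma adjusted p = 4.6e-08). Tnfrsf17 lay at 4.34, 3.92, 4.01 and 4.60 in P0 tissue, below the negative control median on average, and at 4.70, 5.03, 4.94 and 5.21 in adult tissue, at least 1.45-fold higher (limma adjusted p = 0.00029). Every adult array of both plasma cell genes lay above every P0 array, although for Tnfrsf17 the gap between the nearest arrays was small.

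**Figure D2:**
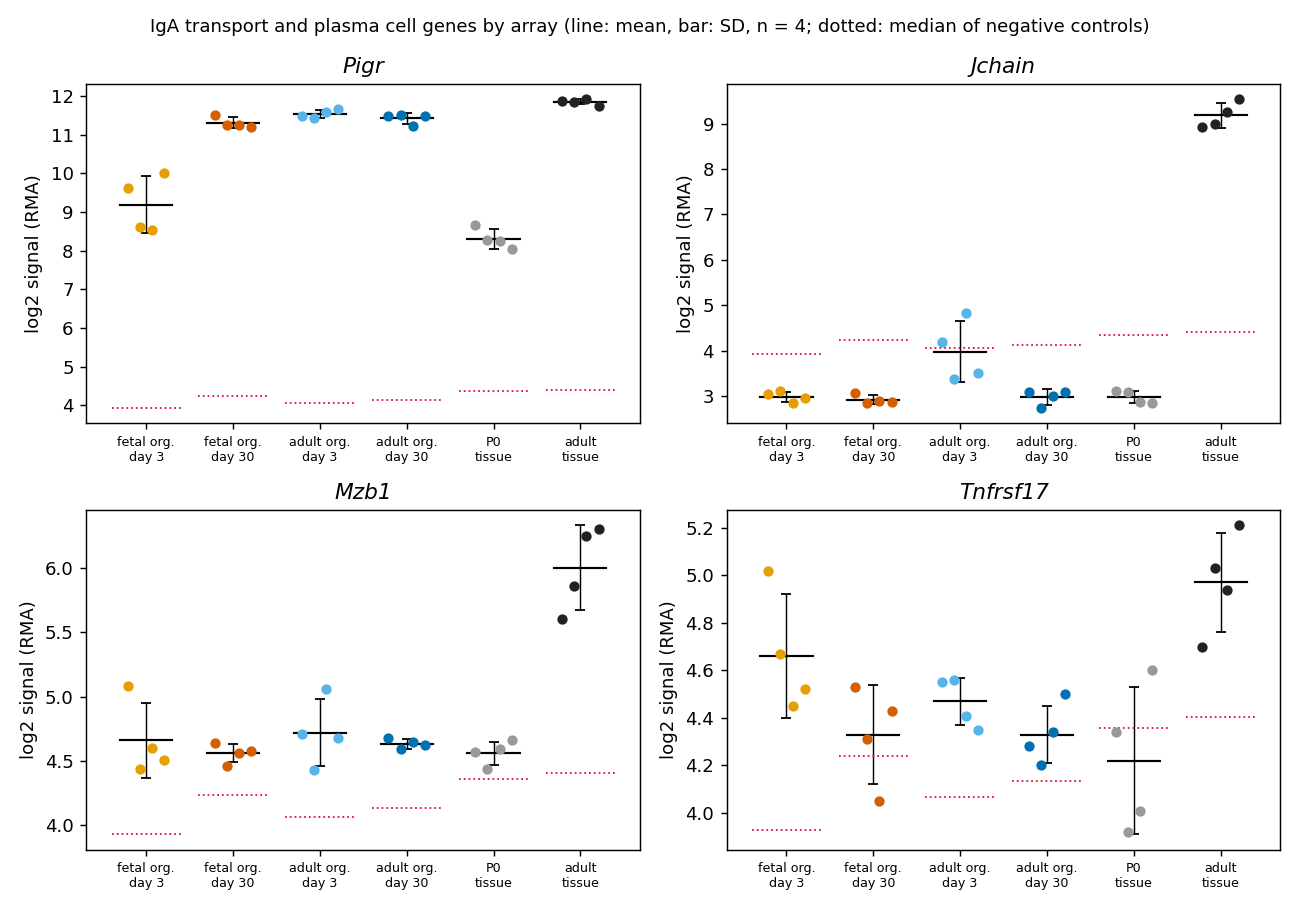
Log2 signal (RMA) of Pigr, Jchain, Mzb1 and Tnfrsf17 on each array of the 6 groups, with the group mean (line), SD (bar, n = 4) and the mean over the group's arrays of the negative control median (dotted). Pigr was high in all organoids but those from fetuses at day 3, and all 4 genes had their highest group mean in adult tissue.

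The 3 constant region genes with probe sets of their own rose as well. Ighm, the constant region of IgM, lay at 4.36, 4.89, 4.22 and 4.23 in P0 tissue and at 5.75, 6.54, 6.32 and 6.45 in adult tissue, a difference of 1.84 ± 0.34 (SE, limma adjusted p = 0.00024). Its P0 mean lay above the bar only through array 2, and P0 arrays 1, 3 and 4 lay below their negative control median. Ighg2b, of IgG2b, lay at 3.76, 3.86, 3.93 and 3.90 in P0 tissue, all below the negative control median, and at 5.24, 5.26, 5.22 and 5.57 in adult tissue, at least 1.96-fold higher (limma adjusted p = 2.5e-08). Ighg1, of IgG1, was at least 1.48-fold higher (limma adjusted p = 7.8e-06), with adult arrays at 4.90, 4.79, 4.68 and 5.33 against 4.21, 4.22, 4.17 and 4.27. The groups overlapped for none of the 3 genes. Levels of different probe sets are not compared, and the IgA constant region gene has no probe set of its own here.

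Among heavy chain V genes, 112 of 117 rose from P0 to adult tissue and 0 fell. The median difference was 2.67, and 1.81 with genes at their bounds, beside 0.08 over all genes. Ighv1-2 rose by 6.83 and was above the bar in both tissues, though below the 95th percentile of the negative controls on the P0 arrays. It lay at 6.14, 6.22, 6.03 and 6.73 on the P0 arrays and at 12.90, 13.09, 13.21 and 13.23 on the adult tissue arrays (SE of the difference 0.40, limma adjusted p = 5.8e-12). RefSeq lists Ighv1-2 as a pseudogene. Ighv9-3 (at least 34.8-fold), Ighv1-64 (at least 25.3-fold), Ighv3-6 (at least 29.9-fold) and Ighv1-53 (at least 31.1-fold) rose from below the negative control median in P0 tissue, so no order is read among them. Ighv1-73 went from 5.10 ± 0.20 to 10.26 ± 0.12 (SD, n = 4), and Ighv1-14 went from 4.85 ± 0.29 to 10.20 ± 0.16 (SD, n = 4).

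Among kappa light chain V genes, 78 of 86 rose and 0 fell, with a median difference of 2.20, and 1.49 with genes at their bounds. Igkv4-59 lay at 2.96, 2.57, 2.42 and 2.77 on the P0 arrays and at 8.99, 9.69, 9.89 and 10.24 on the adult tissue arrays, at least 40.7-fold higher (limma adjusted p = 1.8e-15). Igkv4-54 was at least 43.7-fold, Igkv4-62 at least 36.3-fold, Igkv4-55 at least 30.7-fold and Igkv4-57 at least 21.7-fold higher, all from below the bar in P0 tissue. Igkv19-93, above the bar in both tissues, went from 5.37, 5.16, 4.92 and 5.08 to 10.65, 11.76, 10.78 and 12.47, a difference of 6.28 ± 0.43 (SE, limma adjusted p = 7.4e-11). Its adult arrays spread over more than a 2-fold range while its P0 arrays lay close together, below the 95th percentile of the negative controls.

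V genes fall into families by sequence. Of the 36 families, 14 had at least 5 members. All 63 Ighv1 genes, all 25 Igkv4 genes and 6 of the 8 Ighv2 genes were called higher. All 8 Ighv2 genes lay above the bar in both tissues, with differences from 0.29 to 1.11 and a median of 0.47. The 12 Ighv1 genes above the bar in both tissues had differences from 1.31 to 6.83, which did not overlap the Ighv2 range. Another 45 Ighv1 genes rose from below the bar and 6 stayed below it, and over all 63 the median with genes at their bounds was 2.38. Over all 63 the differences as read ran from 0.77 to 6.83 and so overlapped those of Ighv2. Of the 25 Igkv4 genes 22 have only a bound, and the median with genes at their bounds was 3.51. All 6 Igkv6 genes have only bounds, with a median of 2.04, while the 3 Igkv2 genes above the bar in both tissues rose by 0.63, 1.39 and 2.19. Families were not tested against each other, and bounds give no order between them. Ighv2-5 read 8.05, 7.99, 8.10 and 8.51 in P0 tissue, 8.71, 8.64, 8.65 and 8.90 in adult tissue and between 7.73 and 8.52 on the 16 organoid arrays. Ighv2-3 and Ighv2-4 of the same family had group means between 6.84 and 6.89 and between 6.53 and 6.66 in organoids. Ighv2-5 was the only immunoglobulin gene above the 95th percentile of the negative controls on the P0 arrays and on the fetal organoid arrays. Its P0 and organoid values overlapped, and how far a background signal narrows the Ighv2 differences was not tested.

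**Figure D3:**
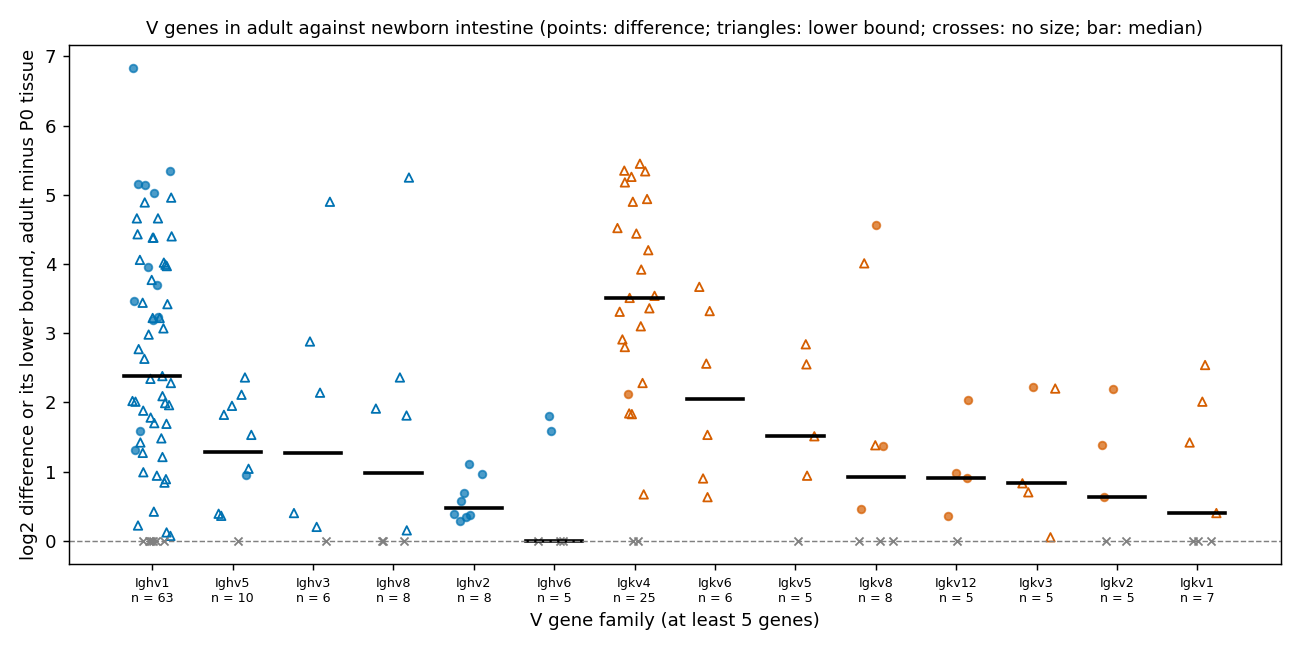
Log2 difference between adult and P0 tissue of each V gene in the 14 families with at least 5 genes, heavy chain families in blue and kappa families in orange. Points are genes above the negative control median in both tissues, triangles are lower bounds of genes below it in P0 tissue, crosses at 0 are genes below it in both, and the bar is the median of all marks; most Igkv4 and Ighv1 genes have only a bound, and the Ighv2 points lie between 0.29 and 1.11.

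RefSeq lists 13 of the V genes as pseudogenes and 190 as V segments, and 11 of the 13 and 179 of the 190 were called higher. Besides Ighv1-2, Ighv1-30 went from 2.12, 2.23, 2.08 and 2.08 to 5.92, 6.44, 7.62 and 6.82, at least 5.08-fold higher (chosen after its values were seen).

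Near-identical V genes cannot be separated with certainty by an array of short probes. Ighv1-62-2 and Ighv1-71 had the same value on every array, and signal on a V gene probe set may come from a relative of the gene it names. The count of V genes that rose is therefore a count of probe sets, not of segments in use. Of the 197 members called higher, 31 had both group means below the negative control median, so for these the call is given without a size.

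The V genes that did not pass were Ighv12-3, Ighv13-1, Ighv2-6-8, Ighv2-9 and Ighv6-7 of the heavy chain and Igkv1-35, Igkv13-87, Igkv18-36, Igkv2-112, Igkv2-95-2, Igkv20-101-2, Igkv8-16 and Igkv8-23-1 of the kappa chain, named after their values were seen. Ighmbp2, a helicase, read 6.14, 6.26, 6.18 and 6.28 in P0 and, uncalled, 6.22, 6.36, 6.22 and 6.44 in adult tissue.

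Adult tissue arrays differed among themselves in their V genes. The median SD of the 203 V genes over the 4 adult arrays was 0.50, beside 0.15 for all genes and 0.16 for the same V genes over the P0 arrays, where most of them lay below the negative control median. For 29 V genes the SD was over 1. Ighv3-4 read 4.48, 2.90, 4.11 and 7.52 on adult arrays 1 to 4, Ighv1-12 read 3.01, 6.68, 2.90 and 5.11, and Ighv1-47 read 5.83, 7.25, 8.52 and 4.95. Ighv9-4 read 9.31, 8.46, 5.45 and 8.65 where Ighv9-3, of the same family, read 6.90, 10.41, 9.85 and 10.75. These genes were chosen after their values were seen, and different arrays were high for different genes: of the 29, 4 were highest on array 1, 9 on array 2, 7 on array 3 and 9 on array 4. Over all 203 V genes, 87 were highest on array 4, whose negative control median of 4.18 was the lowest of the adult tissue arrays, against 4.40 to 4.61 on the others. The part of that offset in the spread was not tested.

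Many genes of the B lineage and of T cells were higher in adult tissue too, and fewer myeloid genes were. Among all genes 15.0% were called higher and 12.2% lower in this comparison. Of the 15 genes of a B cell list, 14 were measured, and 11 rose while 0 fell, led by Spib (0.90 ± 0.24), a transcription factor also found in M cells. Cd79a, part of the B cell receptor, was at least 1.36-fold higher (limma adjusted p = 0.0013). The B cell list mean ran from 3.98 to 4.13 over P0 arrays and from 4.33 to 4.73 over adult arrays, and Ms4a1 (CD20) stayed below the negative control median in both groups. Of 15 measured plasma cell and secretory genes 10 rose and 3 fell. Ell2, an elongation factor used in antibody secretion, rose by 1.82 ± 0.20 (SE), while Slamf7 was at least 1.60-fold and Irf4, a plasma cell transcription factor, at least 1.96-fold higher. Prdm1, which drives plasma cell formation and is also active in fetal gut epithelium, went the other way, by -1.51 ± 0.24 (SE), as did Fkbp11 and Edem2, genes of the secretory pathway, by -0.66 ± 0.18 and -0.37 ± 0.11 (SE). Of 12 measured T cell genes 11 rose, with Gzma, a granzyme, at least 14.9-fold higher, and the T cell list mean ran from 4.31 to 4.42 over P0 arrays and from 5.58 to 6.22 over adult arrays. Of 15 macrophage and myeloid genes 5 rose and 3 fell, with a median difference of 0.16, and that list's mean ran from 5.75 to 5.90 over P0 arrays and from 5.99 to 6.44 over adult arrays. Of 10 epithelial genes 8 rose, and that list's mean ran from 9.56 to 9.68 and from 10.13 to 10.45. The part of a change in epithelial share in the Pigr difference was not tested.

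Genes that act around IgA in the gut moved with Pigr in part. Of 23 measured genes of IgA induction, plasma cell survival and homing, 13 rose and 3 fell from P0 to adult tissue, a median difference of 0.35 beside 0.08 over all genes. Among all genes 15.0% were called higher and 12.2% lower, so the share of the list that fell was close to that of all genes. Ccl28, an epithelial chemokine that draws IgA plasma cells, read 5.34, 5.59, 5.50 and 5.48 in P0 tissue and 8.77, 8.08, 8.10 and 8.02 in adult tissue, a rise of 2.77 ± 0.30 (SE, limma adjusted p = 1.7e-07). Tnfsf13b (BAFF), a survival factor of B cells, rose by 2.03 ± 0.15 (SE), Aldh1a1, a retinoic acid enzyme, by 1.35 ± 0.32 (SE), and Ccl25, a chemokine for gut-homing cells, by 0.81 ± 0.15 (SE). Aldh1a2, the mesenchymal and dendritic cell retinoic acid enzyme, fell by 1.12 on the log2 scale, Cxcl13 by 0.62 and Madcam1, the vessel addressin, by 0.55. Of 17 measured regulators of Pigr 9 rose and 0 fell, led by Relb (1.40 ± 0.11, SE), an NF-kB subunit, and Irf1 (1.38 ± 0.13, SE), an interferon-induced factor. Of 12 genes of Fc and immunoglobulin receptors 4 rose, and Fcgrt, the neonatal Fc receptor that takes up maternal IgG from milk, fell by 3.25 on the log2 scale (limma adjusted p = 1.3e-09). Fcgrt read 11.78, 11.80, 11.57 and 11.48 in P0 tissue and 8.34, 8.42, 8.43 and 8.45 in adult tissue. Between these tissues the IgG importer was high where the IgA exporter was low. Fetal organoids at day 3, given below, had a low Pigr mean without the high Fcgrt signal of P0 tissue.

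In organoids made from E19 intestine, Pigr rose during culture. It read 9.62, 8.62, 8.54 and 10.01 at day 3 and 11.51, 11.26, 11.24 and 11.21 at day 30. The rise was 2.11 ± 0.22 (SE, limma adjusted p = 4.3e-07), a 4.32-fold change, and the days did not overlap although the day 3 arrays spread widely. Without day 3 arrays 2 and 3 it was 1.50. Of the 211 members, 3 were higher at day 30 (Pigr, Igkv5-39 and Ighv16-1), against 6.77% of all genes, and 2 were lower (Ighv1-66 and Igkv17-134), against 8.76%. Centring the arrays moved the share of higher calls among all called genes from 43.6% to 65.6%, with 5 members higher and 0 lower. For Igkv5-39, Ighv16-1 and Igkv17-134 both days lay below the negative control median, so no change is read from them. Jchain read 3.04, 3.12, 2.85 and 2.96 at day 3 and 3.07, 2.84, 2.90 and 2.86 at day 30, below the negative controls throughout. The 206 immunoglobulin genes had a median difference of -0.04, beside -0.03 over all genes.

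Ccl28, Ccl25 and Aldh1a1 also rose in fetal organoids, while immune receptor genes fell. Among all genes 6.77% were called higher and 8.76% lower in this comparison. Ccl28 read 6.98, 5.63, 4.95 and 6.80 at day 3 and 8.92, 8.0, 8.38 and 8.69 at day 30, a rise of 2.41 ± 0.30 (SE, limma adjusted p = 6.4e-06). The same day 3 arrays, 2 and 3, were the lowest for Ccl28 as for Pigr. Ccl25 rose by 0.95 ± 0.15 (SE), Aldh1a1 by 1.46 ± 0.32 (SE) and Tnfsf13b by 0.45 ± 0.15 (SE), so that 4 of the 23 measured genes of that list rose and 6 fell, among them Ccl20, an epithelial chemokine for CCR6 cells, by 1.81, Aldh1a2 by 1.12 and Tgfb1 by 0.75 on the log2 scale. Of the 12 receptor genes 6 fell and 0 rose, with Fcgrt down from 8.11, 8.41, 8.53 and 9.05 to 6.60, 7.69, 6.31 and 6.29. The other 5 that fell were Fcer1g, Fcgr4, Fcgr3, Fcgr2b and Fcgr1. Of the 15 macrophage and myeloid genes, a list that also holds Fcgr1, 14 fell. That list's mean ran from 5.83 to 6.36 on the day 3 arrays and from 4.88 to 5.18 on the day 30 arrays, and its part in the falls of the receptors was not tested. Of the 17 Pigr regulators 0 rose and 3 fell, namely Tnf, Il4ra and Tnfrsf1a. Of the 10 epithelial genes 2 rose and 1 fell.

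**Figure D4:**
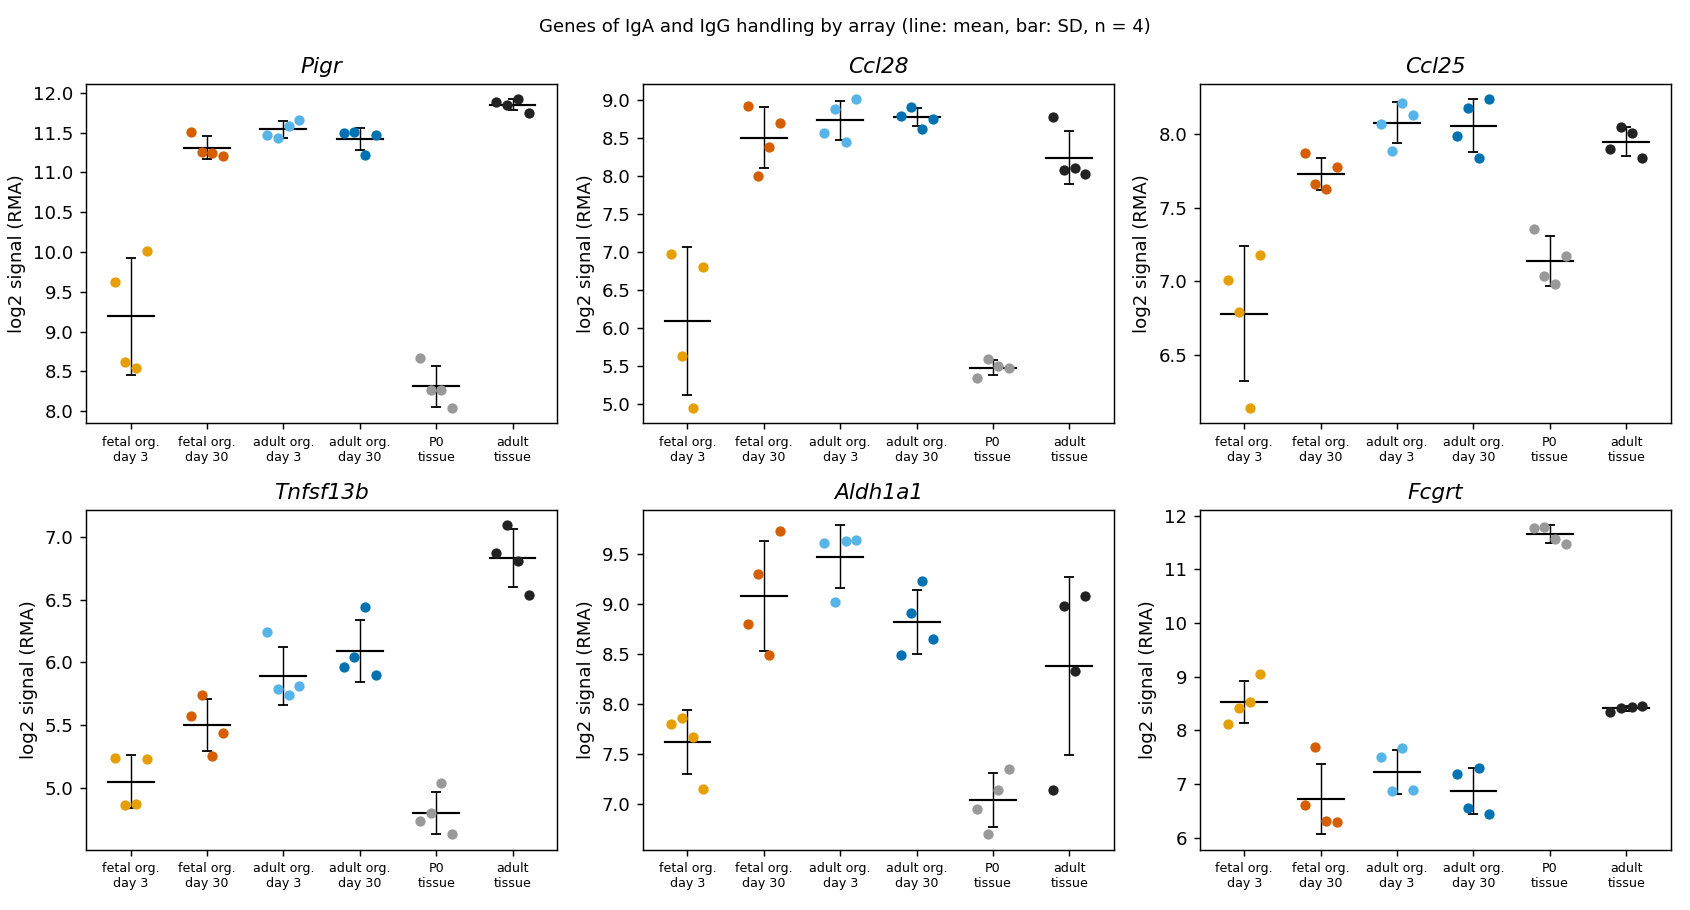
Log2 signal (RMA) of Pigr, Ccl28, Ccl25, Tnfsf13b, Aldh1a1 and Fcgrt on each array of the 6 groups, with the group mean (line) and SD (bar, n = 4). Fetal organoids at day 3 and P0 tissue had the lowest group means of Pigr, Ccl28, Ccl25, Tnfsf13b and Aldh1a1, and P0 tissue the highest of Fcgrt.

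In organoids from adult mice Pigr was high at both times. It read 11.47, 11.43, 11.58 and 11.66 at day 3 and 11.49, 11.51, 11.22 and 11.47 at day 30, a difference of -0.11 ± 0.22 (SE, limma adjusted p = 0.98). Among the 211 members, 0 were called higher, against 0.0261% of all genes, and 0 lower, against 0.0228% of all genes, in limma's test, while 42 members had an unadjusted p under 0.05 in either direction, as did 8.41% of all genes. Of the 206 immunoglobulin genes 174 read lower at day 30, with a median difference of -0.22, beside -0.01 over all genes. On both days 134 of them lay below the bar, and with genes at their bounds the median was 0. Without adult day 3 arrays 1 and 3, 132 were lower, and the median was -0.07.

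The culture change of Pigr differed between ages. The fetal change less the adult change was 2.23 ± 0.30 (SE, limma adjusted p = 0.00012), and it was 2.24 without adult day 3 arrays 1 and 3 and 1.61 without fetal day 3 arrays 2 and 3. In all, 2 of the 211 members had a higher change in fetal organoids, against 1.02% of all genes, and 0 a lower one, against 1.97% of all genes. The other was Igkv5-39 (0.80 ± 0.22, SE, limma adjusted p = 0.046), whose 4 organoid group means all lay below the negative control median. Ccl28 (2.37 ± 0.43, SE), Aldh1a1 (2.11 ± 0.45, SE) and Ccl25 (0.97 ± 0.21, SE) had the same direction. No size is read from Igkv5-39. These comparisons share arrays with the changes within each age.

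At day 3 Pigr was higher in adult than in fetal organoids, and few other members were called. Pigr was 2.34 ± 0.22 higher (SE, limma adjusted p = 6.9e-08), 5.07-fold, with no overlap. Without fetal day 3 arrays 2 and 3 the difference was 1.73. Of the members, 15 were higher, against 14.5% of all genes, and 5 lower, against 10.1% of all genes, so both shares of the 211 members were under those of all genes. The 15 were Pigr, Jchain and 13 Ighv genes, and the 5 were Ighv5-12-4, Ighv1-85, Ighv1-63, Ighv1-66 and Ighv2-5. Of these 20 genes, 9 lay below the bar in both groups, Jchain, Ighv3-6 and Ighv1-85 among them. Ighv5-12-4 read 6.77, 6.23, 6.15 and 6.02 in fetal and 5.72, 5.68, 5.72 and 5.57 in adult organoids. No kappa gene was called in the main fit. With these 2 groups compared alone Igkv1-132, Igkv13-84, Igkv17-121 and Igkv2-109 were called higher. Other kappa genes were called under other alternatives, among them centred arrays and array weights. In the main fit without adult day 3 arrays 1 and 3 none was called either. Since none was called there with all arrays, this does not show what the kappa calls of the alternatives rest on.

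Most of the calls of higher V genes were lost without adult day 3 arrays 1 and 3. Ighv1-69 read 6.64, 3.30, 7.23 and 3.85 on the 4 adult arrays, 3.27, 2.61, 3.01 and 2.82 on the fetal arrays at the same day and 7.24, 8.12, 8.17 and 7.64 in adult tissue. With the fetal arrays below the bar, it was at least 2.51-fold higher in adult organoids (limma adjusted p = 0.0025), and it was not called without adult arrays 1 and 3 (adjusted p = 0.061) or with these 2 groups compared alone (adjusted p = 0.058). Ighv1-2 read 8.59, 6.42, 9.46 and 7.05 on the adult arrays against 5.70, 5.40, 6.17 and 6.43 on the fetal ones, 1.96 ± 0.40 (SE, limma adjusted p = 0.00082) with all arrays and 0.81 (adjusted p = 0.018) without arrays 1 and 3. Ighv3-6 read 4.99, 2.67, 5.06 and 2.81 against 2.81, 2.54, 2.32 and 2.35, below the bar on average in both groups, so that no size is read. Its adjusted p of 0.011 became 0.55 without arrays 1 and 3 and 0.092 with the groups compared alone. Leaving out fetal day 3 arrays 2 and 3 took the counts to 7 members higher and 4 lower. Fewer arrays also lower the power, and that part was not tested. Leaving out adult day 3 arrays 1 and 3, chosen after their values were seen, took the counts to 3 members higher (Pigr, Jchain and Ighv1-2) and 4 lower.

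The same arrays were high for Ighm and for J chain. Ighm read 6.25, 4.35, 6.30 and 4.06 on the adult day 3 arrays, so that arrays 1 and 3 lay within the adult tissue range of 5.75 to 6.54 and arrays 2 and 4 with the organoids of other groups. It was not called against fetal organoids (0.84 ± 0.34, SE, limma adjusted p = 0.081), and without arrays 1 and 3 the difference turned to -0.20 ± 0.19 (SE, adjusted p = 0.55). Jchain read 4.20, 3.38, 4.82 and 3.51, all above the highest fetal organoid array at 3.12 (limma adjusted p = 0.00093, and 0.027 without arrays 1 and 3). Both group means of Jchain lay below the negative control median, so no size is read from it. Igkv19-93 read 7.16, 4.93, 7.29 and 4.86, also high on arrays 1 and 3, and was not called (0.98 ± 0.43, SE, limma adjusted p = 0.10, and -0.19 ± 0.31, adjusted p = 0.75, without these arrays).

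**Figure D5:**
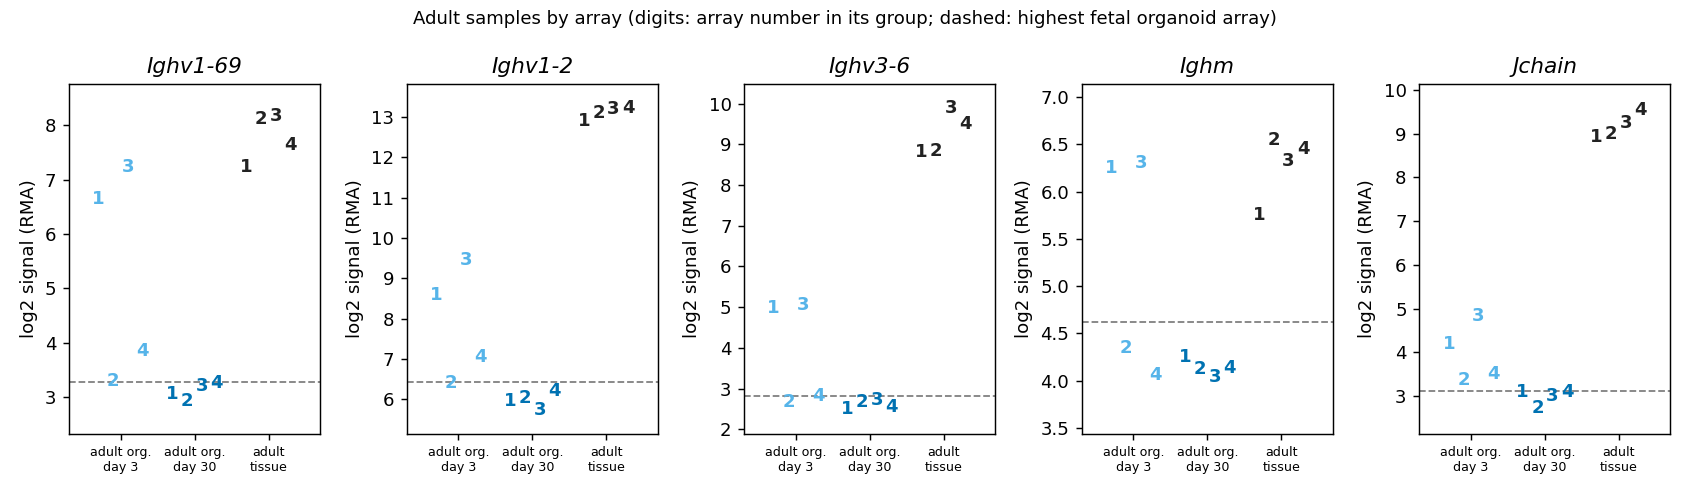
Log2 signal (RMA) of Ighv1-69, Ighv1-2, Ighv3-6, Ighm and Jchain on each array of adult organoids at day 3 and day 30 and of adult tissue, with digits for the array number in its group and a dashed line at the highest of the 8 fetal organoid arrays. Arrays 1 and 3 of adult organoids at day 3 lie above arrays 2 and 4 for all 5 genes.

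Over all 206 immunoglobulin genes the mean level was 4.00, 3.62, 4.01 and 3.66 on the adult day 3 arrays, between 3.55 and 3.75 on fetal organoid arrays and between 3.53 and 3.60 on adult day 30 arrays. On adult day 3 arrays 1 to 4, 103, 26, 98 and 40 of the genes lay above every fetal organoid array, against 14.5%, 16.4%, 15.2% and 14.9% of all genes. By more than 2-fold 7, 0, 13 and 0 did, against 0.166%, 0.0912%, 0.212% and 0.134% of all genes. The B cell list mean was 4.45, 4.22, 4.61 and 4.25 on these arrays and 4.18 to 4.42 on fetal day 3 arrays, and Cd79a read 4.72, 4.38, 5.03 and 4.35. The T cell list mean was 4.52, 4.38, 4.51 and 4.38, the macrophage list mean 5.33, 5.16, 5.26 and 5.09, and the plasma cell and secretory list mean 6.57, 6.66, 6.59 and 6.59. Ms4a1 lay below the negative control median on average in all 6 groups. The part of cells carried over from the tissue was not tested.

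By day 30 adult and fetal organoids no longer differed detectably in Pigr, with a difference of 0.12 ± 0.22 (SE, limma adjusted p = 0.88). Of all 211 members, 0 were higher in adult organoids, against 6.80% of all genes, and 2 were lower, against 2.17% of all genes. A second quantile normalization moved the share of higher calls among all called genes from 75.8% to 52.3%, with 0 members higher and 3 lower. Ighv5-12-4 read 6.23, 6.43, 6.02 and 6.18 in fetal and 5.72, 5.55, 5.49 and 5.47 in adult organoids (-0.66 ± 0.18, SE, limma adjusted p = 0.025), the same side as at day 3. The other was Igkv5-39, below the negative controls in both groups. The 206 immunoglobulin genes had a median difference of -0.03, beside 0.02 over all genes. Ighv1-69, high on some adult arrays at day 3, read 3.06, 2.92, 3.20 and 3.25 at day 30.

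Adult organoids at day 3 had little of the immunoglobulin signal of adult tissue, while their Pigr signal was high. Pigr differed from tissue by -0.31 ± 0.22 (SE, limma adjusted p = 0.31) and was not called, although every organoid array lay below every tissue array. It was called with these 2 groups compared alone (adjusted p = 0.011) and after a second quantile normalization (-0.71, adjusted p = 0.024). Among the members, 189 were lower in organoids, against 13.5% of all genes, and 1 was higher, Ighmbp2, against 21.9% of all genes. Of these, 27 lay below the bar in both groups. Jchain was at least 29.5-fold, Igkv4-62 at least 44.5-fold, Igkv4-80 at least 36.5-fold and Ighv1-64 at least 31.0-fold lower. Mzb1 was lower by 1.28 ± 0.14 and Tnfrsf17 by 0.51 ± 0.14 (SE). Ighm was 1.03 lower (SE 0.34, limma adjusted p = 0.022, and 0.13 with the groups compared alone) and 2.06 lower without organoid arrays 1 and 3, while the count of members lower was 188 without them. Of 12 T cell genes 9 were lower and 0 higher, of 15 macrophage genes 12 were lower and 1 higher, and of 14 B cell genes 3 were lower and 0 higher. The epithelial list's mean ran from 9.96 to 10.16 on these organoid arrays.

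Fetal organoids at day 3 exceeded P0 tissue in Pigr, by 0.88 ± 0.22 (SE, limma adjusted p = 0.0022), although fetal arrays 2 and 3 (8.62 and 8.54) lay within the P0 range of 8.04 to 8.67. Over all 211 members, 20 were higher, against 30.5% of all genes, and 0 were lower, against 13.8% of all genes, so the members' share was under that of all genes, and 9 of the 20 lay below the bar in both groups. The counts turned on scaling: with arrays centred on their median 9 members were higher and 3 lower, with a second quantile normalization 7 and 3, and the share of higher calls among all called genes fell from 68.9% to 54.3% and 53.3%. Ighv8-12 read 4.61, 4.84, 4.45 and 4.62 in organoids and 3.72, 3.69, 3.43 and 4.07 in P0 tissue (at least 1.21-fold higher, limma adjusted p = 0.0097). Ighv5-12-4 was 0.61 ± 0.18 higher (SE) and the listed pseudogene Ighv5-8 at least 1.41-fold. These 3, Pigr, Tnfrsf17, Ighv14-3 and Ighmbp2 were called higher under both scalings. Tnfrsf17, below the bar in P0 tissue on average, was not called in every fit with single arrays left out (limma adjusted p from 0.0029 to 0.076). E19 organoids and P0 tissue also differ in age by the labels. The epithelial list's mean ran from 10.11 to 10.28 on these organoid arrays and from 9.56 to 9.68 on the P0 arrays. Of its 10 genes, 6 were higher in organoids and 1 was lower. The part of epithelial share in this Pigr difference was not tested. Fcgrt was 3.13 lower in the organoids (SE 0.26, limma adjusted p = 3.4e-09) and Ccl20 4.12 higher (SE 0.53).

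Placed in order of group means, Pigr stood at 11.85 in adult tissue, 11.54 and 11.42 in adult organoids at day 3 and day 30, 11.31 in fetal organoids at day 30, 9.19 in fetal organoids at day 3 and 8.31 in P0 tissue. The neighbours among the 4 highest groups were not called in limma's test (adjusted p from 0.31 to 0.98), although adult tissue and adult day 3 organoids were told apart with groups compared alone and after a second quantile normalization, and the neighbours below them were called. The part of epithelial share in the Pigr order of tissues and organoids was not tested. For Jchain, the group mean lay above the negative control median in adult tissue and below it in the other 5 groups. On arrays 1 and 3 of adult organoids at day 3, however, Jchain lay above the negative control median of the array.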

How the data were processed

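RNA of 24 samples was measured on Affymetrix arrays. The deposited log2 values were made by the authors with Affymetrix Expression Console and RMA, per the submitters' processing notes. RMA corrects background, normalizes between arrays and summarises probes, which compresses differences at low signal. The sources used here give no version, no genome build and no account of which arrays were normalized jointly. Of 72688 probe sets 31258 named 1 gene (1492 named several and were left out), and the one with the highest mean was used per gene, which gave 30701 genes. Older symbols were updated through RefSeq, where all 211 members were found.

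All arrays were fitted in 1 limma model of 6 group means (limma 3.58.1, R 4.3.3), with 8 comparisons, two-sided tests and Benjamini-Hochberg adjustment over all genes. The fit was tested on simulated data. Promoters came from RefSeq (GRCm38.p6). The lists B cell, plasma cell and secretory, IgA induction, Fc receptors, regulators of Pigr, epithelium, T cell and macrophage are described by counts. Members, lists and named genes (fixed members, the largest called V genes of each comparison, the highest V genes, the largest called list genes) were chosen with earlier results of these data known. Alternatives covered scaling, filters, priors, array weights, a replicate block and arrays left out.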

Additional observations from a re-analysis of the deposited data

Results flagged for a closer look

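3 probe sets that name several genes at once, and so stood outside the comparisons, carried the constant regions that have no probe set of their own. The heavy chain one (Igha, Ighd, Ighg2c and joining segments) read 4.39, 4.41, 4.19 and 4.51 in P0 tissue and 5.80, 5.82, 5.69 and 6.12 in adult tissue, a difference of 1.48. On adult organoids at day 3 it read 5.51, 4.69, 5.79 and 4.73. The kappa one (Igkc, joining segments and V genes) was 3.14 higher in adult than in P0 tissue and read 5.17, 4.73, 5.32 and 4.78 on the adult day 3 organoid arrays. The lambda one (Iglc1, Iglc2, Iglc3 and V genes) was 4.80 higher and read 5.14, 3.83, 5.04 and 3.97 there. Of the 25 joined probe sets, 23 were higher on every adult than on every P0 tissue array, against 17.2% of the genes with a probe set of their own. No test was run on them.

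The change of Pigr with culture differed between ages by 2.23 and that of Igkv5-39 by 0.80 (log2, fetal less adult organoids), by limma's test of the difference. Igkv5-39 lay below the negative control median in all organoid groups.

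Single arrays lay far from the other 3 of their group in 3 of 48 groups of values tested by Dixon's ratio, where chance gives about 1 in 20. These were Pigr at 11.51 in fetal organoids at day 30 (highest array), Pigr at 11.22 in adult organoids at day 30 (lowest array) and Ighg2b at 5.57 in adult tissue (highest array).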

How the results depend on the processing

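The alternative that leaves out adult day 3 arrays 1 and 3 was chosen after seeing the data. The alternatives changed the direction of no named gene's called difference. Of 1611 alternative values of single genes, 100 lost the call and 13 gained one. With groups compared alone 9 calls were lost, among them Ighm in adult organoids against tissue, and 2 were gained, among them Pigr there. With array weights Jchain was lower in adult organoids at day 30 (-1.01, adjusted p = 0.015). Uncalled, Ighm in adult against fetal organoids turned to -0.20 without adult day 3 arrays 1 and 3. Of 312 alternative counts of members, 234 lay within 1.5 times the count given. For adult minus P0 tissue, 128 members were higher under a filter that kept genes brighter than their array's median on 4 or more arrays, since fewer genes were tested.

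Members higher in fetal organoids at day 30 (3 as given) numbered 1 with groups compared alone, 5 with arrays centred, 1 without fetal day 3 arrays 2 and 3, 1 at an adjusted p under 0.01, and 1 to 5 with single arrays left out. Members lower there (2 as given) numbered 1 with the filter on dim genes, 1 with groups alone, 0 centred, 0 after quantile normalization, 0 with array weights, 1 without fetal day 3 arrays 2 and 3, 0 at 0.01, and 0 to 1 with single arrays left out. In adult organoids 10 members were lower at day 30 with array weights and 0 to 7 with single arrays left out (7 without adult day 3 replicate 2). The larger change of fetal organoids (2 as given) held for 1 without fetal day 3 arrays 2 and 3, 1 without adult day 3 arrays 1 and 3, 1 at 0.01, and 1 to 6 with single arrays left out.

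Members higher in adult than fetal organoids at day 3 (15 as given) numbered 7 without fetal day 3 arrays 2 and 3, 3 without adult day 3 arrays 1 and 3, 8 at 0.01, and 9 to 23 with single arrays left out. Members lower there (5 as given) numbered 2 at 0.01 and 3 to 5 with single arrays left out. At day 30 members lower (2 as given) numbered 4 with the filter, 0 at 0.01 and 0 to 3 with single arrays left out. Members higher in adult organoids than tissue (1 as given) numbered 0 after quantile normalization and 1 to 2 with single arrays left out. For fetal organoids minus P0 tissue, members higher (20 as given) numbered 10 with the filter, 9 centred, 7 quantile normalized, 10 without P0 arrays 1 and 4, 7 without P0 arrays 2 and 3, 7 at 0.01, and 9 to 17 with single arrays left out. Members lower there (0 as given) numbered 1 with the filter, 1 with groups alone, 3 centred, 3 quantile normalized, 1 without P0 arrays 2 and 3, and 0 to 1 with single arrays left out. Other causes were not tested.

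No pairing of the samples by replicate number was seen: deviations of same-numbered arrays correlated between -0.306 and 0.296, and in 0 of 15 pairs of groups was every value over 0.1. Correlations over all genes cannot exclude pairing, since array noise may hide it. With the replicate number as a block, 1 member had a larger change in fetal organoids, 1 was lower in fetal organoids at day 30, 1 was lower in adult than fetal organoids at day 30, and 1 was lower in fetal organoids than in P0 tissue.

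Signals limit what can be read. With the negative control median as the bar, between 41 and 50 of 206 immunoglobulin genes were above it on P0 arrays and between 152 and 180 on adult tissue arrays. With the 95th percentile the counts were 1 and between 35 and 61. A gene below the bar in both groups gives no size.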
